A study of Mus musculus with 2 samples.

Results

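The genes described here are 10 of the 32285 genes counted in a pair of single-cell RNA libraries: the kinase gene Jak2, the transcription factor genes Stat3, Stat5a and Stat5b, the feedback inhibitor genes Cish, Socs1, Socs2 and Socs3, and the target genes Pim1 and Bcl3. They were taken by name as JAK-STAT factors with their SOCS feedback. Myeloid-derived suppressor cells (MDSC) had been grown for 4 days from the marrow of C57BL/6 females, 10 weeks of age, with both GM-CSF and IL-6 added at 50 ng/mL. One library came from cells given 1.5 µM dabrafenib (DAB), an inhibitor of the kinase BRAF, and the other from cells given an equal volume of the solvent DMSO. Both groups thus carried the same cytokines, and they differed by the drug. There was 1 library per condition, how many mice were pooled is not given in the labels or methods, and no test between conditions was possible.

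The receptor of GM-CSF carries JAK2, which phosphorylates STAT5 (the closely related proteins STAT5A and STAT5B), whereas the IL-6 receptor acts through its gp130 chain mainly on STAT3. Activated STATs enter the nucleus and switch on, among others, genes of the SOCS family, whose proteins bind receptors or kinases and damp the same signal. CIS (the product of Cish) and SOCS2 are known as STAT5-induced members, SOCS3 is known for limiting gp130 and G-CSF receptor signals, and SOCS1 for limiting interferon signals, and in the marrow this circuit sets how progenitors become granulocytes, monocytes or dendritic cells.

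STAT dimers are known to bind DNA at the motif TTCNNNGAA, which reads the same on both strands. The motif was looked for in RefSeq promoter windows of 300 bases (250 before to 50 after a transcript start, assembly GRCm38.p6), of which the table held 12 for 9 of the 10 genes and none for Socs2. It occurred in the windows of Cish and Socs3, 2 of 12, against 8.3% of all 32851 windows. Both sites are printed because no other of the 9 genes held the motif in these windows. Each run is 30 bases, 5′ to 3′ on the gene's strand, with the motif in capitals.
Cish, chr9:107296654-107296683, plus strand: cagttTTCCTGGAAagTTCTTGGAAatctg
Socs3, chr11:117969501-117969530, minus strand: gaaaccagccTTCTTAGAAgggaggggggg
Cish held 2 copies separated by 2 bases, the first of which began at position 1 of the RefSeq transcript. In the GENCODE vM21 annotation they lay in an exon of 1 of 5 Cish transcripts and outside the other 4. The single copy of Socs3 began 154 bases before the RefSeq start (position -154), in an intron of 1 of 3 Socs3 transcripts and outside the other 2. A match in letters does not show that a STAT was bound there.

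After removal of poor barcodes and called doublets, 9032 DMSO cells (91633538 UMIs, median 7475 per cell) and 10476 DAB cells (139724832 UMIs, median 9335.5) were kept. A unique molecular identifier (UMI) counts 1 captured RNA molecule, and levels are given in CPM, the gene's share in all UMIs summed over a group of cells, scaled to 1000000. Intervals are 95% and cover counting error only. A gene is called higher or lower, or said to rise or fall, where its log2 ratio of DAB over DMSO reached 0.5 in size and its interval left out 0. The libraries shared 152 barcode sequences, 1.54% of the DMSO and 1.31% of the DAB barcodes as deposited. The MDSC markers Itgam (420.3 CPM in DMSO, 541.5 in DAB), Ly6g (141.9 and 104.9) and Ly6c2 (346.6 and 612.8) were present in both libraries. The cells fell into 28 clusters, built without the 10 genes and without other pathway genes that mark no class. Of these, 14 were named as 11 classes by fixed markers, and 51.3% of DMSO and 48.5% of DAB cells stayed unnamed. In 7 named classes each library had at least 200 cells. RNA that leaks between droplets was gauged from granulocyte and monocyte genes in the B cell-like cluster, where their level was 3.86% (DMSO) and 9.82% (DAB) of the library level in the median. Each of the 10 genes was above that share of its own library level in every named class, except 5 of them in the eosinophil-like class, which held 5 DMSO cells.

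Over all cells, the 3 STAT genes and Socs3 were lower in DAB, while Jak2, the other SOCS genes, Pim1 and Bcl3 stayed within a log2 ratio of 0.5. Thus 4 of the 10 genes fell and 0 rose, where 16.3% and 13.8% of the 16391 genes with at least 20 UMIs did so. The median log2 ratio of the 10 genes was -0.26, against -0.02 over all genes. The sum over cells gives most weight to cells rich in UMIs. With every cell weighing the same, the count of lower genes was 2 (Stat3 and Stat5b), since Stat5a came to -0.38 and Socs3 to -0.09. That setting has no interval, so a call there rests on size alone, and 16.2% of all genes fell in it. With the cluster mix of the libraries made equal the count was also 2, with Stat5a at -0.49 and Socs3 at -0.34, where 12.7% of all genes fell. Both counts of 2 of the 10 genes are near the share of all genes. Stat3 (-0.54 in the mean over cells, -0.52 with equal mix) and Stat5b (-0.54 and -0.57) were thus called lower in all 3 ways of summing, with values near the size of 0.5. Stat5a and Socs3 were called in the sum only, although Stat5a with equal mix lay just short of that size. The part of cell mix and depth in these differences was not tested.

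**Figure D1:**
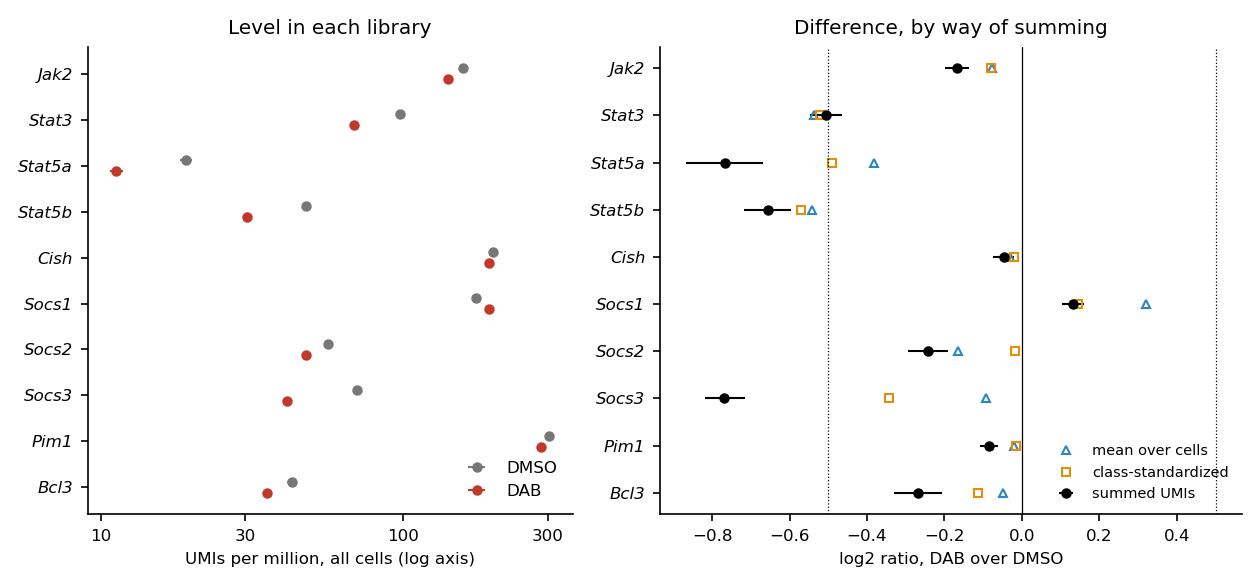
The left panel plots the level of each gene in CPM over all cells, on a log axis, with 1 point per library and bars for the 95% counting interval. The right panel plots the log2 ratio of DAB over DMSO from summed UMIs (black, with its interval), from the mean over cells (triangles) and with cluster shares made equal (squares), with dotted lines at -0.5 and 0.5. The black points of Stat3, Stat5a, Stat5b and Socs3 lie left of the lower line, and Socs3 lies at -0.09 in the mean over cells.

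Jak2 (chr19:29251828-29313080, plus strand, GRCm38) stood at 157.9 CPM (DMSO) and 140.6 CPM (DAB), with a log2 ratio of -0.17 (-0.20 to -0.14). Its level differed far more between cell types than between libraries. The activated dendritic cell-like cluster, which expressed Ccr7, Fscn1 and Ccl22, had the highest level among 21 clusters that held 100 cells or more per library, 584.9 CPM (DMSO) and 601.8 CPM (DAB), with a log2 ratio of 0.04 (-0.07 to 0.15). That cluster held 1.85% of DMSO and 1.06% of DAB cells and contributed 11.1% and 5.81% of all Jak2 UMIs. Mature monocyte-like cells, marked by MHC class II genes, had 294.1 and 215.8 CPM, a log2 ratio of -0.45 that stayed short of the size needed for a call. Chemokine-high and intermediate granulocyte-like cells were low in both libraries (62.1 and 63.6 CPM, and 64.3 and 86.2 CPM), and B cell-like cells had 77.6 and 44.9 CPM. Of the 7 larger classes, only the macrophage-like one had a call, from 88.9 to 60.9 CPM (-0.55, -0.77 to -0.32). No alternative clustering gave a macrophage-like class among its larger ones. Jak2 had no call in a larger class at Leiden resolution 0.5 or 1.5, with no cell cycle regression or with no doublet removal. With no alignment of the libraries it was called lower in mature monocyte-like cells (-0.52).

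Stat3 fell from 97.6 CPM (DMSO) to 68.7 CPM (DAB), with a log2 ratio of -0.51 (-0.55 to -0.46), at the edge of the size needed for a call. It came to -0.48 when the libraries were scaled by the median of ratios over genes, or when the unnamed cluster B (leading genes Il2ra, Cpa3 and Cd200r3) was left out. Its ratio was below 0 in 19 of those 21 clusters, and it fell in 11 of them. For reference, over all genes and the 21 clusters, 12.8% of gene and cluster pairs fell and 12.9% rose. The exceptions in sign were the B cell-like cluster (166.0 CPM in DMSO and 186.7 in DAB) and the activated dendritic cell-like cluster (181.1 and 222.0 CPM). Among the 7 larger classes it fell in 5, most in chemokine-high granulocyte-like cells, from 94.5 to 49.3 CPM (-0.94, -1.16 to -0.71). Mature monocyte-like cells, with 113.4 and 91.0 CPM (-0.32), stayed short of a call.

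Stat5a, the least counted of the genes, fell from 19.2 CPM (1755 UMIs) to 11.3 CPM (1573 UMIs), a log2 ratio of -0.77 (-0.87 to -0.67). The named classes with the highest Stat5a were B cell-like (120.5 and 112.7 CPM), basophil or mast cell-like (115.5 and 46.5 CPM) and activated dendritic cell-like (95.4 and 66.5 CPM). These 3 small classes, 4.24% of DMSO cells together, held 23.4% of the Stat5a UMIs of that library. Granulocyte-like and monocyte-like classes had 30.3 CPM or less in DMSO. There Stat5a fell by 1.15 on the log2 scale in mature monocyte-like cells (30.3 to 13.6 CPM), by 1.16 in chemokine-high granulocyte-like cells (10.7 to 4.77 CPM) and by 1.05 in granulocyte progenitor-like cells (26.5 to 12.9 CPM). Intermediate granulocyte-like cells (5.75 and 5.93 CPM) and mature PMN-like cells (9.32 and 12.5 CPM) had no call, on 32 to 64 UMIs in a library. With no doublet removal Stat5a was called lower in intermediate granulocyte-like cells (-0.65). With no cell cycle regression it had no call in chemokine-high granulocyte-like cells (-0.57).

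Stat5b fell from 47.9 CPM (DMSO) to 30.4 CPM (DAB), with a log2 ratio of -0.66 (-0.72 to -0.60). It was the 1 gene of the 10 with a ratio below 0 in all 21 clusters, from -1.18 to -0.02, and it fell in 10 of them. Mature monocyte-like cells gave the lowest ratio, from 46.5 to 20.5 CPM (-1.18, -1.39 to -0.96). In basophil or mast cell-like cells it went from 204.6 to 105.6 CPM (-0.96, -1.35 to -0.56), and in the unnamed cluster R, where Stat5b was highest, from 232.0 to 114.1 CPM. The 3 STAT genes lie side by side on chromosome 11, Stat5b from 100780731 to 100850724, Stat5a from 100859351 to 100885169 and Stat3 from 100885098 to 100939540 (GRCm38). Stat5a and Stat3 run on opposite strands and share 72 bases at their ends, and 8626 bases separate Stat5a from Stat5b. Stat5a and Stat5b are close copies of each other, and the sources used here do not give how reads fitting both were counted. How reads were divided between these neighbours is therefore uncertain.

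The plot of ratios by cluster shows these columns beside each other. Over 70 pairs of a gene and a larger class, 24 fell (34.3%) and 4 rose (5.71%). Between 8.28% and 18.9% of all genes tested in the same classes fell, and between 9.56% and 27.6% rose. The STAT genes made up 14 of the 24. Per class, 5 of the 10 genes fell in immature monocyte-like cells (18.5% of all genes) and 5 in macrophage-like cells (14.7%). In granulocyte progenitor-like cells 4 fell (16.4%) and in mature monocyte-like cells 4 (18.9%), against 2 in chemokine-high granulocyte-like cells (11.9%) and 1 in mature PMN-like cells (8.28%). In intermediate granulocyte-like cells 3 fell (14.4%) and 3 rose (27.6%), and in mature PMN-like cells 1 rose (15.1%). None rose in chemokine-high granulocyte-like (9.56%), granulocyte progenitor-like (15.7%), immature monocyte-like (12.1%), macrophage-like (11.8%) and mature monocyte-like cells (15.5%).

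**Figure D2:**
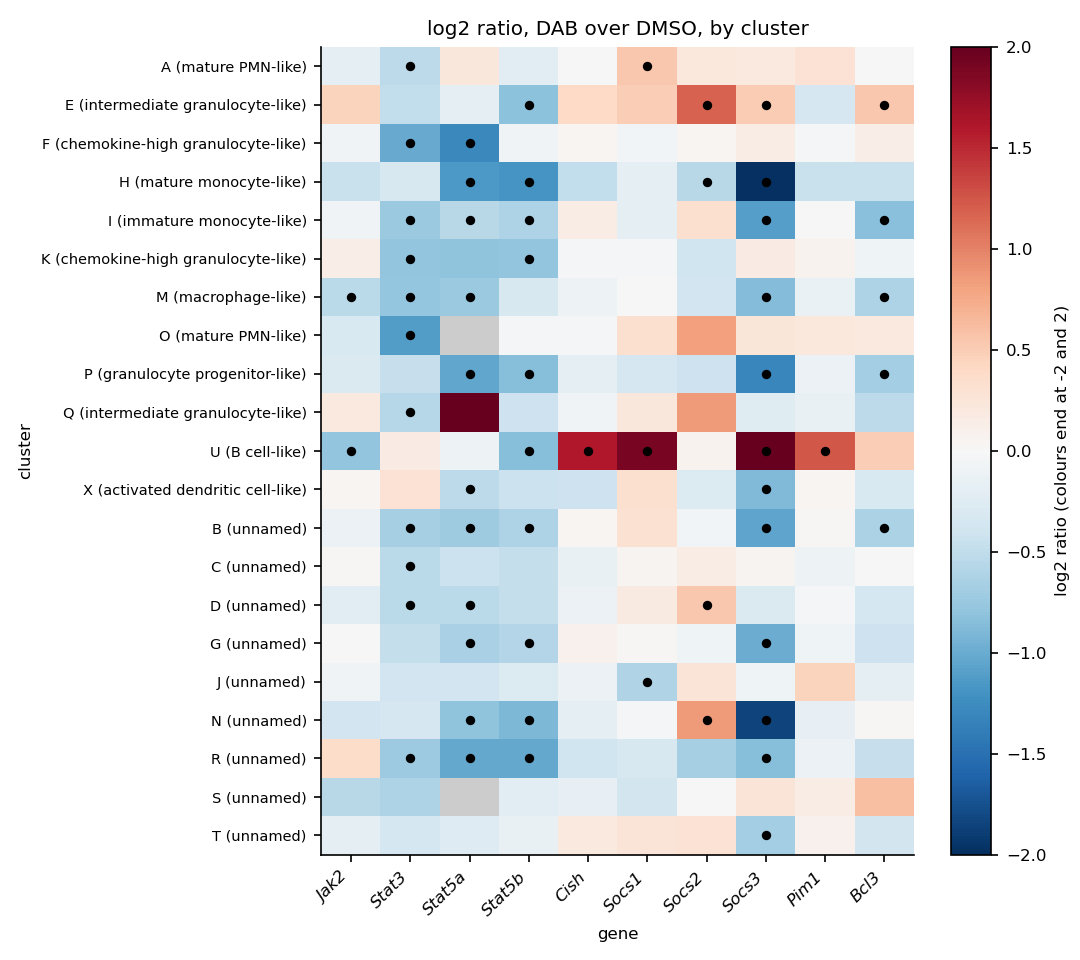
Each tile gives the log2 ratio of DAB over DMSO of 1 gene (columns) in 1 of 21 clusters (rows, with the class name), red for higher in DAB and blue for lower, with grey tiles for under 20 UMIs. Dots mark genes past the size of 0.5 whose interval leaves out 0. The Stat3, Stat5a and Stat5b columns are mostly blue, the Socs3 column is blue in monocyte-like, macrophage-like and progenitor-like rows and red in the B cell-like row, and the dark Stat5a tile of cluster Q rests on 1 DMSO UMI.

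Among the SOCS genes, Cish (chr9:107296026-107302784, plus strand), whose protein competes with STAT5 for cytokine receptors, was the most even. It came to 197.9 CPM (DMSO) and 191.5 CPM (DAB) (log2 ratio -0.05, -0.07 to -0.02), and in the 7 larger classes its ratio lay between -0.49 (mature monocyte-like, 229.7 and 163.9 CPM) and 0.38 (intermediate granulocyte-like, 175.8 and 228.0 CPM), with no call. Mature PMN-like cells, which expressed Csf3r and Mmp9, had the highest Cish of these classes in both libraries, 280.9 and 284.6 CPM. With no cell cycle regression Cish was called lower in mature monocyte-like cells (-0.52). Outside the larger classes it rose in basophil or mast cell-like cells (103.3 to 155.7 CPM, 0.59, 0.13 to 1.07) and in B cell-like cells (1.61). After thinning to 1500 UMIs a cell, which left out 436 DMSO and 292 DAB cells, Cish was seen in 26.8% (25.9 to 27.7) and 25.7% (24.8 to 26.5) of them. At full depth it was seen in 70.3% and 73.2%.

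Socs1 (chr16:10782240-10785536, minus strand), known as a direct inhibitor of JAK kinases, came to 174.7 CPM (DMSO) and 191.5 CPM (DAB) (0.13, 0.10 to 0.16). Of the 7 larger classes it rose in 2. Mature PMN-like cells went from 225.8 to 327.5 CPM (0.54, 0.41 to 0.66), with 0.54 in cluster A and 0.32 (-0.01 to 0.64) in cluster O, and came to 0.499 at Leiden resolution 0.5 and 0.39 with no alignment of the libraries. Intermediate granulocyte-like cells went from 108.7 to 212.3 CPM (0.97, 0.84 to 1.09). The latter class joins cluster E (Camp, Ltf, Ngp; 935 DMSO and 270 DAB cells) with cluster Q (Retnlg, Ly6g, Mmp13; 123 and 378 cells). Within E, Socs1 had 93.4 and 131.9 CPM (0.50, just under the size), and within Q 245.8 and 286.5 CPM (0.22, -0.001 to 0.45). The rise in the joined class was therefore larger than in either of its clusters, and moved with the shift of cells from E to Q. With no alignment it came to 0.43. Markers of other cell types moved in this class too. All 7 immature monocyte markers (202.9 to 2297 CPM in sum) and all 5 chemokine-high granulocyte markers (5348 to 15490 CPM) rose, while 5 of its own 10 markers fell and 2 rose (71210 to 44630 CPM). Their part in the Socs1, Socs2 and Socs3 values of this class was not tested.

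Socs2 (chr10:95385362-95417180, minus strand), whose protein is known to limit growth hormone signalling, followed a different order over cell types. Over all cells it came to 56.3 CPM (DMSO) and 47.6 CPM (DAB) (-0.24, -0.29 to -0.19). Activated dendritic cell-like cells had 409.0 and 340.2 CPM, the highest of the 21 clusters in both libraries, and held 21.9% of DMSO and 9.70% of DAB Socs2 UMIs. Left without that cluster, the ratio over all cells was -0.06. Mature monocyte-like cells were next among the named classes and fell from 124.7 to 85.2 CPM (-0.55, -0.67 to -0.43). In intermediate granulocyte-like cells, near the bottom of the order, Socs2 rose from 9.07 to 22.3 CPM (1.30, 0.89 to 1.72), where cluster E had 1.18 (0.65 to 1.70) and cluster Q 0.85 (-0.05 to 1.90).

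Socs3 (chr11:117966079-117970047, minus strand) had the widest range of ratios over the 7 larger classes. Over all cells it fell from 70.4 CPM (DMSO) to 41.3 CPM (DAB), with a log2 ratio of -0.77 (-0.82 to -0.72). The fall was found in monocyte-like and progenitor-like classes. Mature monocyte-like cells went from 103.3 CPM (809 UMIs in 397 cells) to 24.8 CPM (423 UMIs in 574 cells), a log2 ratio of -2.06 (-2.23 to -1.89). Granulocyte progenitor-like cells, which expressed Elane and Mpo, went from 112.5 to 45.7 CPM (-1.30, -1.50 to -1.11). Immature monocyte-like cells went from 108.9 to 50.7 CPM (-1.11, -1.29 to -0.92) and macrophage-like cells from 73.6 to 40.1 CPM (-0.87, -1.15 to -0.61). Activated dendritic cell-like cells went the same way, from 74.8 to 40.6 CPM (-0.88, -1.28 to -0.50).

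The granulocyte-like classes past the progenitor stage did not share that fall. Mature PMN-like cells had 93.8 and 107.5 CPM of Socs3 (0.20, -0.004 to 0.40), and chemokine-high granulocyte-like cells, which expressed Ccl3 and Ccl4, had 46.4 and 53.1 CPM (0.19, -0.10 to 0.49). In the mean over cells the chemokine-high value was 0.514, which reached the size for a call. The granulocyte name of the chemokine-high class is uncertain, since its larger cluster F was led by Ccl2, Gpnmb and Ccl3. In sum the class held 9243 and 7641 CPM of intermediate granulocyte markers and 3617 and 4855 CPM of immature monocyte markers. Intermediate granulocyte-like cells rose from 20.4 to 31.6 CPM (0.63, 0.33 to 0.93), with 17.8 and 25.3 CPM in cluster E (0.51, 0.10 to 0.92) and 44.4 and 37.4 CPM in cluster Q (-0.25, -0.79 to 0.33). This rise was not called with no alignment (0.23), no cell cycle regression (0.30) or no doublet removal (0.45). In DMSO, mature monocyte-like and mature PMN-like cells were thus close in Socs3 level, and in DAB the latter had the higher one. Socs3 also fell in the unnamed clusters B, G, N, R and T, and in N, led by mitosis genes such as Ube2c and Top2a, it went from 60.9 to 16.9 CPM (-1.85, -2.12 to -1.59). At 1500 UMIs a cell, a Socs3 UMI was seen in 15.4% (11.99 to 19.3) of DMSO and 3.67% (2.28 to 5.55) of DAB mature monocyte-like cells, against 66.8% and 39.6% at full depth. The thinned shares of mature PMN-like cells were 14.3% and 14.6%.

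The mature monocyte-like cluster differed between the libraries in other markers as well. Of 6 macrophage markers 5 fell there, their summed level going from 360.2 CPM in DMSO to 33.0 in DAB, and of 7 immature monocyte markers 6 fell, from 3439 to 1661 CPM. No macrophage marker was at 0 in either library, and none of its own 7 class markers rose or fell (23160 and 19650 CPM in sum). Markers moved in the other larger classes with lower Socs3 as well. In granulocyte progenitor-like cells 3 of 5 own markers fell and 1 rose (3805 to 2583 CPM in sum), as did 5 of 7 immature monocyte markers against 2 that rose (3004 to 2721 CPM) and 3 of 6 macrophage markers (161.4 to 22.8 CPM). In immature monocyte-like cells 5 of 7 own markers fell and 1 rose (8003 to 6753 CPM), with 5 of 6 macrophage markers (396.3 to 158.2 CPM), and in macrophage-like cells 4 of 6 own markers fell (691.6 to 330.9 CPM). Immature monocyte markers summed to more in macrophage-like cells (15420 and 14070 CPM) than in immature monocyte-like cells. Mature PMN markers rose in 6 of 8 in macrophage-like (789.2 to 1296 CPM) and 5 of 8 in immature monocyte-like cells (1262 to 1804 CPM). In granulocyte progenitor-like cells 3 of them rose and 1 fell (870.8 to 1004 CPM). The part of these shifts in the Socs3 differences was not tested. Leaving the whole mature monocyte-like cluster out gave a ratio of -0.63 for Socs3 over all the other cells.

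**Figure D3:**
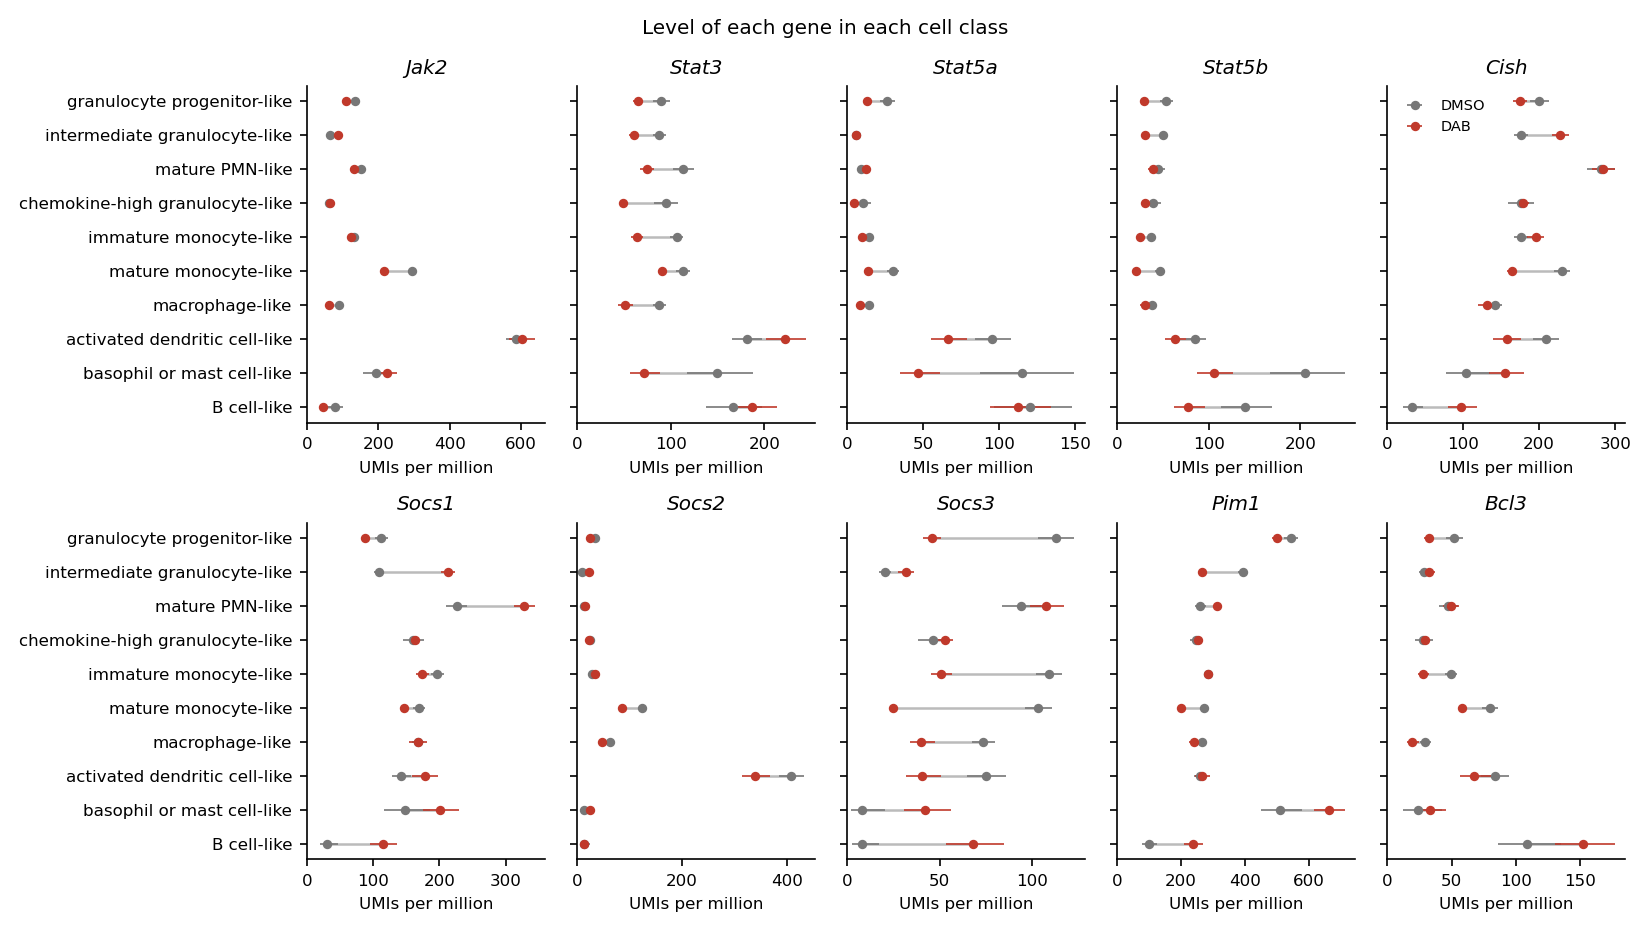
Each panel plots 1 gene, with its level in CPM from 0 on the x axis, the 10 named classes of at least 50 cells per library as rows, and 1 point per library with its 95% counting interval. Socs3 separates the libraries in progenitor-like and monocyte-like rows and not in mature PMN-like ones, while Jak2 and Socs2 peak in the activated dendritic cell-like row (584.9 and 409.0 CPM in DMSO).

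The UMIs of Cish and Socs3 were set against each other within each library, a ratio that needs no scaling between libraries. Over all cells there were 18135 Cish and 6448 Socs3 UMIs in DMSO, a log2 ratio of Cish over Socs3 of 1.49 (1.45 to 1.53), and 26759 and 5775 in DAB, a ratio of 2.21 (2.17 to 2.25). The difference of 0.72 (0.66 to 0.78) came to 0.06 in the mean over cells and to 0.32 with equal cluster shares. Of 21 clusters 12 lay above 0, with a median of 0.18. By class it was 1.57 (1.38 to 1.76) in mature monocyte-like, 1.25 (1.04 to 1.47) in immature monocyte-like, 1.11 (0.88 to 1.33) in granulocyte progenitor-like and 0.77 (0.46 to 1.08) in macrophage-like cells. In the 3 granulocyte-like classes past the progenitor stage the intervals held 0, with -0.18 (-0.41 to 0.05) in mature PMN-like, -0.17 (-0.49 to 0.16) in chemokine-high and -0.25 (-0.56 to 0.06) in intermediate granulocyte-like cells. It was below 0 in B cell-like (-1.47, -2.83 to -0.12) and basophil or mast cell-like cells (-1.78, -3.32 to -0.24), which held 6 and 4 Socs3 UMIs in DMSO. In DMSO the balance ranged from 0.69 in immature monocyte-like to 3.10 in intermediate granulocyte-like cells, and in DAB from 1.40 in mature PMN-like to 2.85 in intermediate granulocyte-like cells over the 7 larger classes.

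**Figure D4:**
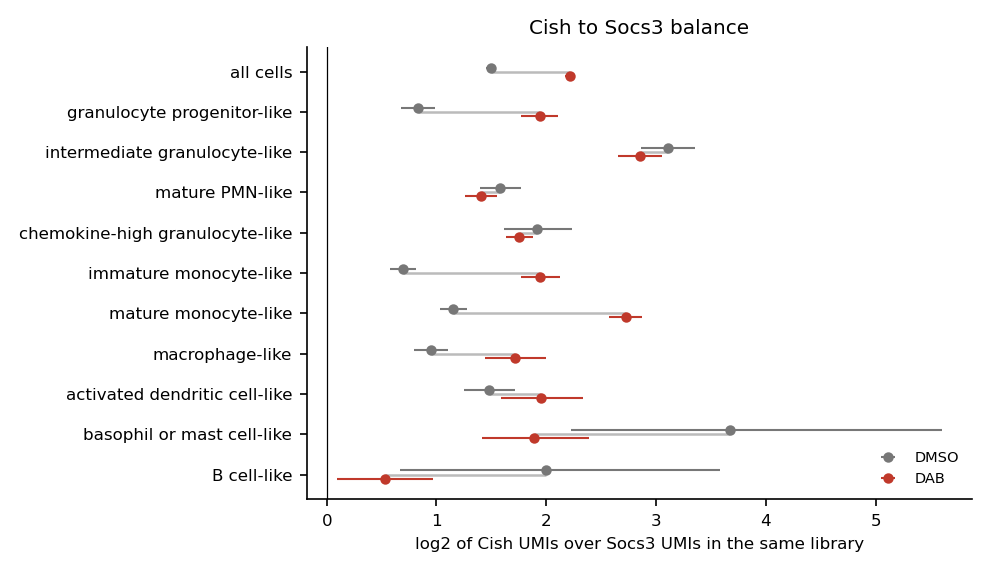
The x axis gives the log2 of Cish UMIs over Socs3 UMIs counted in the same cells, for all cells and 10 classes (rows), with 1 point per library and bars for the 95% counting interval. The DAB point lies to the right of the DMSO point in progenitor-like, monocyte-like and macrophage-like rows, by 1.57 in the mature monocyte-like one, and the bars overlap in the rows of mature PMN-like, chemokine-high and intermediate granulocyte-like cells.

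Cells thinned to 3000 UMIs were sorted by which of this pair they showed. In mature monocyte-like cells, 11.96% of 393 DMSO cells held both Cish and Socs3 (8.92 to 15.6), 11.96% held Socs3 alone and 33.8% Cish alone. In DAB, 3.32% of 572 cells held both (2.01 to 5.14), 4.20% Socs3 alone and 31.6% Cish alone. The shares with Cish alone had overlapping counting intervals, while those with Socs3 did not overlap. Mature PMN-like cells held both in 14.7% (DMSO) and 14.1% (DAB). Over all cells, 28.6% of cells of either library held UMIs of at least 2 of the 4 SOCS genes at that depth. The share was 13.1% in DMSO and 29.8% in DAB for intermediate granulocyte-like cells and 37.9% and 25.2% for mature monocyte-like cells.

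The target genes moved little over all cells. Pim1 (chr17:29490753-29496112, plus strand), which encodes a survival kinase, stood at 303.1 CPM (DMSO) and 285.9 CPM (DAB) (-0.09, -0.11 to -0.06). It was highest of the larger classes in granulocyte progenitor-like cells (543.6 and 498.5 CPM) and fell in intermediate granulocyte-like cells from 392.9 to 266.1 CPM (-0.56, -0.65 to -0.48). Within clusters E (410.6 and 326.4 CPM, -0.33) and Q (234.4 and 210.5 CPM, -0.16) of that class it stayed short of the size for a call, as it did in the whole class in the mean over cells (-0.44), with no alignment (-0.39) and with no cell cycle regression (-0.43). Bcl3 (chr7:19808462-19822770, minus strand), a nuclear partner of NF-κB subunits, stood at 42.8 CPM (DMSO) and 35.5 CPM (DAB) (-0.27, -0.33 to -0.21). On the opposite strand Bcl3 overlaps Gm16174 (706 and 749 UMIs), Pim1 Gm26885 (204 and 226) and Cish Gm17041 (61 and 44). Bcl3 fell in immature monocyte-like (49.5 to 27.8 CPM, -0.83), granulocyte progenitor-like (52.0 to 32.4 CPM, -0.68) and macrophage-like cells (29.7 to 19.4 CPM, -0.62), which are 3 of the 4 larger classes where Socs3 fell. It was not called in immature monocyte-like cells with no cell cycle regression (-0.47) or in macrophage-like cells in the mean over cells (-0.43). With no alignment it was also called lower in mature monocyte-like cells (-0.505). In mature PMN-like cells Bcl3 had 47.5 and 49.4 CPM. Its highest level among the 21 clusters was that of B cell-like cells, 108.4 and 152.3 CPM (0.49, 0.10 to 0.89). Bcl3 fell in 4 of the 21 clusters and rose in 1, where 12.8% and 12.9% of all gene and cluster pairs did so.

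The B cell-like cluster, of 146 DMSO and 195 DAB cells, stood apart in its SOCS genes. Socs3 had 6 UMIs (8.03 CPM) in DMSO and 77 (67.8 CPM) in DAB, Socs1 30.8 and 114.5 CPM, Cish 32.1 and 97.7 CPM, and Pim1 100.4 and 237.7 CPM. The log2 ratios were 3.08 (1.89 to 4.57), 1.89 (1.25 to 2.60), 1.61 (0.96 to 2.31) and 1.24 (0.87 to 1.63), so that 4 of the 10 genes rose, against 13.8% of all genes in this cluster. Genes used to gauge leaked RNA went both ways there. S100a8 went from 467.2 to 1698 CPM, which is 2.60% and 9.74% of the library level, and S100a9, Spp1, Retnlg and Mmp9 also had larger values in DAB. In CPM, smaller values in DAB were those of Csf3r (32.1 and 4.40 CPM), Camp (20.1 and 9.685 CPM) and Lyz2 (247.7 and 191.1 CPM). As a percent of the library level, Camp was instead larger in DAB (3.54% and 16.3%) and Mmp9 smaller (7.9% and 6.93%). Csf3r (51.3% and 14.5%) and Lyz2 (15.5% and 8.94%) were smaller by that measure too. Socs3 over the whole DAB library stood at 41.3 CPM. The part of leaked RNA or mixed droplets in the values of this cluster was not tested. Stat5b fell there from 139.2 to 77.5 CPM (-0.85, -1.27 to -0.42) and Jak2 from 77.6 to 44.9 CPM (-0.79, -1.36 to -0.22), 2 of the 10 genes against 8.62% of all genes. In cells of this cluster with a UMI of the B cell receptor gene Cd79a (138 DMSO and 181 DAB cells), Socs3 had 5.61 and 66.9 CPM. Of the 6 macrophage markers 4 were at 0 in both libraries and 1 rose (80.3 to 467.5 CPM in sum), and 6 of 7 mature monocyte markers, MHC class II genes among them, rose, from 6826 to 18190 CPM in sum. That list does not mark monocytes alone, since activated dendritic cell-like cells stood at 23030 and 22070 CPM. Of the cluster's own 6 markers 4 rose (2380 to 3817 CPM). Chemokine-high granulocyte markers rose in 4 of 5 (393.6 to 1232 CPM) and intermediate granulocyte markers in 4 of 10 (401.6 to 669.1 CPM). Of 7 immature monocyte markers 3 fell and 1 rose (560.9 to 410.3 CPM). The part of these marker shifts in the differences above was not tested. Basophil or mast cell-like cells (70 DMSO and 116 DAB cells) had 4 Socs3 UMIs (8.10 CPM) in DMSO and 47 (42.1 CPM) in DAB, a log2 ratio of 2.38 (0.92 to 4.31). There 7 of 10 intermediate granulocyte markers (382.9 to 1322 CPM) and 5 of 7 mature monocyte markers (281.6 to 1463 CPM) rose, and their part was not tested.

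Few UMIs of most of these genes were counted in a single cell. In DMSO cells with a UMI the mean was lowest for Stat5a (1.41 UMIs in 13.8% of cells) and highest for Pim1 (4.32 UMIs in 71.3%), and in DAB it was 1.30 UMIs in 11.6% and 5.09 UMIs in 74.9%. Socs2 and Stat5a were the most concentrated. The 1% of DMSO cells with the most UMIs of a gene held 22.5% of the Socs2 and 21.3% of the Stat5a UMIs, against 6.02% for Cish. In DAB the Socs2 share was 16.0%. Cells with 5 or more Socs3 UMIs were 3.44% of DMSO and 1.77% of DAB cells, without thinning and although DAB cells were deeper.

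The genes with the most similar profile to each SOCS gene were sought over 42 profiles (21 clusters in 2 libraries), by Pearson r of log2(CPM + 1) among 10749 genes with at least 500 UMIs. For Socs2 they were Gnb4 (r = 0.91), Tnfrsf11a (0.88) and Nostrin (0.87). For Cish they were Pgghg (0.85), Gsn (0.84) and Myadm (0.84), and for Socs1 Lxn (0.86), Fuca1 (0.84) and S100a11 (0.82). No gene came as close to Socs3, whose nearest were Rtl5 (0.66), Atraid (0.65) and Exoc7 (0.65). Among the 10 genes themselves, Stat3 and Stat5b (0.77), Stat5a and Bcl3 (0.76), Cish and Socs1 (0.72) and Stat3 and Stat5a (0.72) were the most alike, and Stat5b and Socs1 (-0.57) the least. Socs3 and Bcl3 came to 0.09. The profiles share libraries and depths, so these values describe likeness only.

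Of 60 other JAK-STAT genes that were tested in 5 lists, 11 rose (18.3%) and 9 fell (15%), near the 13.8% and 16.3% of all genes. None of 8 other kinase and STAT genes rose and 1 fell (Stat2). Among 16 other negative regulators 1 rose (Usp18) and 1 fell (Ptpn1). Among 17 receptor genes 2 rose and 2 fell. Csf2ra, of the GM-CSF receptor, rose from 102.7 to 167.0 CPM (0.70, 0.67 to 0.74). Il6st, which encodes gp130, the chain that IL-6 signals through, fell from 26.5 to 6.46 CPM (-2.04, -2.15 to -1.93). Its lowest ratio was in immature monocyte-like cells, from 514 to 25 UMIs (-3.91, -4.55 to -3.33). The other larger classes ranged from -1.66 in granulocyte progenitor-like to -1.03 in intermediate granulocyte-like cells (11 and 5 UMIs, -2.904 to 0.615). Csf3r, the G-CSF receptor gene, fell from 62.6 to 30.4 CPM (-1.04, -1.10 to -0.99). Il5ra, of the IL-5 receptor, rose at a very low level (0.05 and 0.19 CPM, 1.77, 0.37 to 3.51).

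The target lists had medians of opposite sign. Of 10 STAT5 targets 7 rose and 0 fell, with a median log2 ratio of 0.73 against -0.02 over all genes, of which 13.8% rose and 16.3% fell. Cish and Socs2, named above as STAT5-induced, and Pim1 are not in this list and had no call (-0.05, -0.24 and -0.09). Among the 7 list genes that rose were Il2ra, an IL-2 receptor chain (17.1 and 59.3 CPM, 1.79), the cyclin genes Ccnd2 (111.9 and 288.2 CPM, 1.37) and Ccnd1 (13.6 and 34.3 CPM, 1.33) and Cd69 (35.4 and 88.5 CPM, 1.32). By class they were uneven. Ccnd2 was higher in each of the 7 larger classes, from 0.60 in mature PMN-like to 1.89 in intermediate granulocyte-like cells. At their lowest, Ccnd1 came to -0.01 (-1.001 to 1.13) in chemokine-high granulocyte-like, Cd69 to 0.21 (-0.32 to 0.74) in mature PMN-like and Il2ra to 0.16 (0.002 to 0.31) in mature monocyte-like cells. Il2ra rose in immature monocyte-like (21 and 249 UMIs, 4.02), macrophage-like (9 and 110 UMIs, 4.64) and granulocyte progenitor-like cells (52 and 292 UMIs, 1.67). The granulocyte-like classes past the progenitor stage held 0 or 1 Il2ra UMI in DMSO. Il2ra is the leading gene of the unnamed cluster B, which held 508 DMSO and 980 DAB cells. Of 10 STAT3 targets 5 fell and 1 rose, with a median of -0.46. Timp1, a metalloproteinase inhibitor, fell from 44.8 to 4.13 CPM (-3.44, -3.57 to -3.31) and Bcl6, a transcriptional repressor, from 18.2 to 8.96 CPM (-1.02, -1.12 to -0.91), while Fgl2 rose from 23.6 to 72.8 CPM (1.63, 1.56 to 1.69). Timp1 is a leading gene of the unnamed cluster AA, which held 120 DMSO and 13 DAB cells. Its ratio was -4.68 in immature monocyte-like and -1.10 in mature monocyte-like cells, and mature PMN-like and intermediate granulocyte-like cells held 1 to 4 UMIs in a library. Fgl2 had no call in chemokine-high granulocyte-like (-0.19, -0.85 to 0.53) or mature PMN-like cells (-0.17, -0.69 to 0.36). These lists were written with earlier results of the same libraries known, so their direction is not independent evidence, and most of their genes also answer to other factors.

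**Figure D5:**
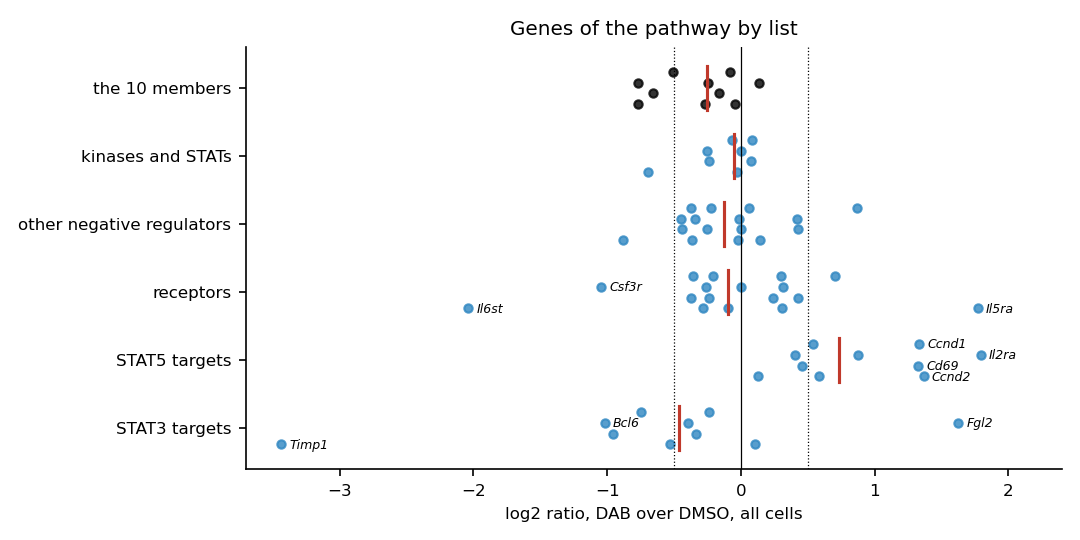
Points are genes, placed by log2 ratio of DAB over DMSO over all cells (x axis) and by list (rows), with the list's median as a red bar, dotted lines at -0.5 and 0.5, and names for ratios of 1 or more in size. The STAT5 target row centres at 0.73 and the STAT3 target row at -0.46, while the 10 JAK-STAT and SOCS genes of the top row centre at -0.26.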

How the data were processed

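Single-cell RNA of 1 DMSO and 1 DAB library (10x Genomics 5′ chemistry) was used. The deposited values are raw UMI counts per gene and barcode, made by the authors with Cell Ranger 7.0.0 in its 5′ chemistry setting on mm10, with no normalization. Per the labels' processing notes, R 4.1.2 and Seurat 4.3.0 were used afterwards. The authors' clusters were not used here. The deposited matrices hold 9855 DMSO barcodes (106792967 UMIs) and 11631 DAB barcodes (165506902 UMIs).

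Barcodes over 10% mitochondrial UMIs were removed (55 DMSO, 89 DAB), and 0 more lay beyond 4 median absolute deviations for depth or detected genes. Doublets were scored against simulated ones, and 768 DMSO and 1066 DAB barcodes were removed, at a rate rising with the number of barcodes. Pearson residuals of 3000 variable genes, with cell cycle and mitochondrial scores regressed out, were reduced to 40 components, aligned by mutual nearest neighbours (k = 20) and clustered (Leiden, resolution 0.9, seed 1). A cluster was named after the class whose markers had the highest mean fold, if at least 3 of them and most of those detected reached a log2 fold of 1, and if its top 10 genes held more markers of that class than of any other (granulocyte classes past the progenitor had to exceed the remaining cells in S100a8 or Csf3r), a rule set after clusters of an earlier analysis had been seen. The chemokine-high class joins clusters F (238 DMSO and 928 DAB cells, led by Ccl2, Gpnmb and Ccl3) and K (101 and 630, led by Cxcl3 and Cxcl2), and the mature PMN-like class A (729 and 1109) and O (286 and 259). The tools were leidenalg 0.10.2 with igraph 0.11.9 for clusters, scipy 1.17.1 for intervals, numpy 2.4.6 with pandas 2.3.3, and matplotlib 3.10.9, in Python 3.11.15.

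The 10 genes, the pathway lists and the markers were chosen with earlier results of these data known. With 1 library per condition, no test was run. Summed UMIs carry exact Poisson intervals, ratios exact conditional binomial intervals and shares exact binomial intervals, all for counting error only. The interval of a difference between Cish to Socs3 ratios is a normal approximation on the log scale. A direction was read from a log2 ratio of 0.5 in size, among genes with at least 20 UMIs. The named genes were the 10, list genes whose log2 ratio reached 1 in size, the 3 nearest profiles of each SOCS gene, and Stat2, Usp18, Ptpn1 and Csf2ra, which were named after their values were seen. The ratio intervals were tested on simulated counts that held only the counting error they assume. That test could not cover spread between cells or between libraries. Gene positions come from GENCODE vM21 and promoter windows from RefSeq, both on GRCm38, the assembly of mm10. The alternatives are those given with the dependence on processing.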

Additional observations from a re-analysis of the deposited data

Results flagged for a closer look

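A pair of genes rose in 1 larger class and fell in others, and these differences between classes were not tested, since each condition has 1 library. Socs2 had a log2 ratio of DAB over DMSO of 1.3 in intermediate granulocyte-like and -0.55 in mature monocyte-like cells. Socs3 had 0.627 in intermediate granulocyte-like cells, against -2.057 in mature monocyte-like, -1.301 in granulocyte progenitor-like, -1.105 in immature monocyte-like and -0.874 in macrophage-like cells. The intermediate class is cluster E for most DMSO cells and cluster Q for most DAB cells, and within Q the Socs3 ratio was -0.247 (-0.79 to 0.331). The Socs3 rise of this class was not called with no alignment (0.233), no cell cycle regression (0.301) or no doublet removal (0.453). In the mean over cells Socs3 also reached the size for a call in chemokine-high granulocyte-like cells (0.514).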

How the results depend on the processing

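No paired analysis was possible because there is 1 library per condition, and for the same reason no replicate could be left out. Over all cells, 4 lower genes became 3 (without Stat3) with median of ratios scaling, which shifts every log2 ratio by 0.02 (15.4% of all genes fell). They became 2 in the mean over cells, which has no interval (16.2% of all genes), and 2 with equal cluster shares (12.7%), both without Stat5a and Socs3. With a log2 ratio of 1 as the size there were 0, where 5.63% of all genes rose and 7.03% fell. At that size 6 of the 60 other JAK-STAT genes rose and 4 fell. The median log2 ratio of the 10 genes was -0.086 in the mean over cells and -0.097 with equal cluster shares, against 0.087 and 0.017 over all genes. The Cish to Socs3 difference was 0.064 in the mean over cells, 0.322 with equal cluster shares and 0.628 without mature monocyte-like cells. Calls over all cells were the same for all 10 genes without the cell filter and without doublet removal. In the 7 larger classes, 24 of 70 pairs fell and 4 rose. The lower pairs became 15 at Leiden resolution 0.5, 10 with no alignment and 13 with no cell cycle regression. Only 5, 4 and 5 classes were large enough there, so these counts cover fewer pairs. The 4 raised pairs became 1 with no alignment and 1 without intermediate granulocyte-like cells. The share of all genes called by class is not given for these settings. Socs3 in its lowest class stayed between -2.06 and -1.77 in the 6 alternatives by class. The settings without a class, and with each cluster left out in turn, were chosen after seeing the data. Depth limits Stat5a most, with 1 UMI of it in the DMSO cells of cluster Q.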
